A study of Mus musculus with 12 samples.

Results

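Natural killer (NK) cells sorted from tumours of mice with a kinase-inactive form of the Janus kinase TYK2 were compared with NK cells sorted from tumours of wild-type mice. The comparison takes 4 of 12 libraries, namely NK KE replicates 1 and 2 and NK WT replicates 1 and 2, which were chosen by their labels and not by any measured value. Of 54232 genes in the table, 13129 were tested, namely those whose normalized counts averaged 10 or more over the libraries. KE mice carried the TYK2KE allele, a point mutation that keeps the TYK2 protein but removes its kinase activity. WT mice were C57BL/6N, and the mutant mice were kept on that background. NK cells of mice with a TYK2 knockout (KO) and CD8 T cells of all 3 genotypes, again with 2 libraries a group, serve here as reference points. Each sex- and age-matched mouse had received MC38 cells, a colon adenocarcinoma line, under the skin of both flanks and no further treatment, and the tumours were taken after 8 to 10 days. The mutations are carried by every cell of the mouse, so that NK cells and the cells around them in the tumour share the genotype. Each library was made from 300 cells that stained for CD45 and NK1.1 and not for CD3ε. The sources used here do not say whether the libraries of a group came from separate mice or from pools, so that the p-values below measure the spread between these libraries, which may be technical.

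TYK2 sits on one chain of the type I interferon receptor and on the receptor chain shared by interleukin 12 and interleukin 23, and it passes their signals on to STAT transcription factors by phosphorylation. Interferon-stimulated genes (ISG) carry GAAA-rich promoter elements that bind interferon regulatory factors and STAT complexes, and many of them encode antiviral proteins. NK cells kill tumour cells through granzymes and perforin and release interferon γ, and interleukin 12 and type I interferon are among the signals that arm them. The question put to these libraries is how far the transcripts of tumour NK cells differ from WT when TYK2 is present but cannot phosphorylate.

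The 4 libraries held 10378761 to 13021485 counted reads, and the 12 libraries of the series 10378761 to 14732882, so that sequencing depth differed little. A group total of 3 counts was taken as the floor of detection. Pearson's r of log2 CPM (read counts scaled to a common total) across genes was 0.764 between the WT libraries, 0.793 between the KE libraries and 0.705 to 0.748 between a WT and a KE library. Genes are not independent replicates, so that these values only describe the libraries. Tyk2 itself lay at 60.6 and 68.5 CPM in the WT libraries and at 119 and 81.6 CPM in the KE libraries, with a log2 fold change of 0.64 (SE 0.49). A point mutation need not alter the count of its own gene, so that this does not check the genotype. In the NK KO libraries Tyk2 lay at 55.8 and 104 CPM, so that its count does not separate them from WT. The genotype labels, KO included, were taken as given. Ptprc, which encodes CD45, lay at 2417 and 2769 CPM in WT and at 3335 and 2583 CPM in KE libraries. Klrb1c, which encodes NK1.1, lay at 1063 and 1426 CPM in WT and at 2243 and 1705 CPM in KE libraries, so that both sort markers were present in all 4. Cd3e, part of the T cell receptor complex, was low but higher in KE, at 8.93 and 7.12 CPM in WT and 30.7 and 30.8 CPM in KE libraries. Its log2 fold change was 1.94 (SE 0.62), with an FDR of 0.631 by edgeR and 0.030 by DESeq2. Cd8a lay between 2.68 and 4.51 CPM in the 4 libraries.

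Macrophage and monocyte transcripts separated the WT from the KE libraries. Summed over the 34 tested genes of a list of 39, they reached 19348 and 17409 CPM in the WT libraries and 90.5 and 514 CPM in the KE libraries, and the mean sum was 60.8 times higher in WT. NK KO replicate 1 held 7970 CPM and NK KO replicate 2 the least of all libraries, while the 6 CD8 libraries held 93.1 to 896 CPM. Of the 34 genes, 0 and 2 were at 0 in the WT libraries and 10 and 4 in the KE libraries. C1qb, a complement subunit of macrophages, lay at 2423 and 2279.6 CPM in WT, at 10.6 and 26.9 CPM in KE, and at 942 and 1.1 CPM in the KO libraries. Lyz2, the lysozyme of myeloid cells, lay at 2498 and 2085 CPM in WT, at 14.2 and 93.5 CPM in KE, and at 3346 and 19.3 CPM in the KO libraries. Both genes were thus high in both WT libraries, low in both KE libraries and split between the KO libraries. In bulk RNA from sorted cells, fewer cells of a type and less RNA per cell cannot be told apart. The part that these transcripts play in the other differences below was not tested. Therefore the main gene groups are given with further values, namely the level in the KO libraries, the count after the macrophage and monocyte score was added to the model as a covariate, and the difference in CD8 T cells, whose libraries held few such transcripts in every genotype. The score is the mean log2 CPM of the 34 genes. With a mean for each group, the slope of the covariate rests on score gaps within groups, and the NK KO pair supplied 71.1% and the NK KE pair 14.8% of their summed squares. The covariate values and the gap between the KO libraries therefore rest largely on the same pair and are not separate readings. The gene lists share members, with 51 of 615 listed genes in 2 or more, so that their counts are not independent.

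**Figure D1:**
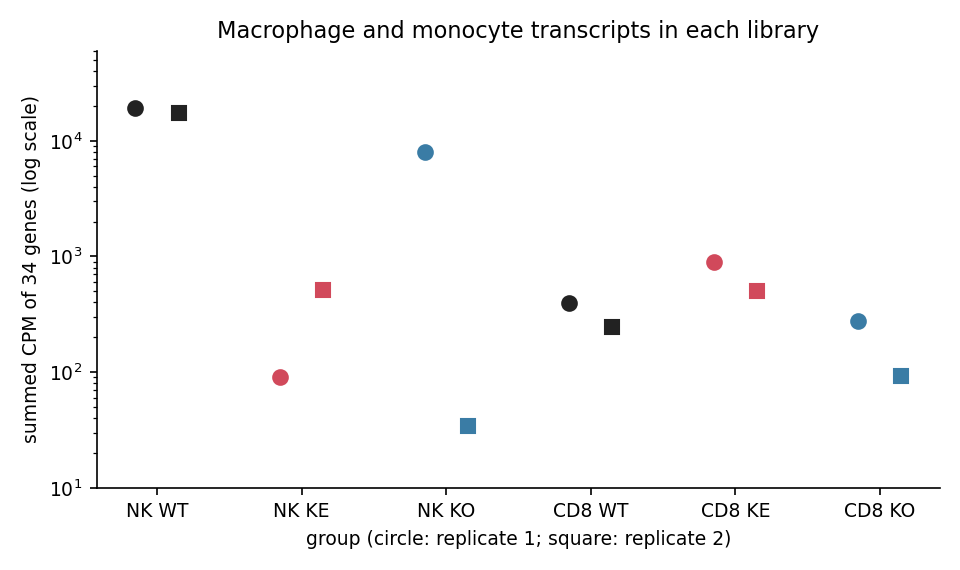
Summed CPM of 34 macrophage and monocyte genes in each of the 12 libraries, by group, on a log scale, with circles for replicate 1 and squares for replicate 2. The NK WT libraries sit at 19348 and 17409 CPM, NK KO replicate 1 at 7970 CPM, and every other library at 896 CPM or less.

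No gene passed the threshold in KE against WT NK cells with edgeR's quasi-likelihood test (0 of 13129, 0.0%), where a call took an FDR below 0.05 together with a log2 fold change of 1 or more in size. The smallest FDR was 0.0603, for Ctsc. At an unadjusted p under 0.05, 524 genes lay lower in KE (3.99% of all tested) and 272 lay higher (2.07%). DESeq2 on the same 12 libraries called 388 genes, of which 278 were lower (2.12%) and 110 higher (0.838%), so that the number of calls depended on the tool. Lower genes outnumbered higher genes by either tool, but not in every fit: 316 lay lower and 316 higher without WT replicate 1, and with the score as a covariate 285 lay lower (2.17%) and 403 higher (3.07%). Without KE replicate 1, 299 lay lower and 185 higher. Many of the lower genes were close to undetected in KE cells: 248 of the 524 had at most 3 counts in the KE libraries together, and 280 lay under 1 CPM in both. Conversely, 108 of the 272 higher genes had at most 3 counts in the WT libraries together. In what follows, lower and higher describe the position of a gene, and genes with p under 0.05 before adjustment are counted per group against the background of 3.99% lower and 2.07% higher.

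The gene with the smallest p-value was Ctsc, which encodes cathepsin C, the protease that activates granzymes. It lay at 1507 and 1694 CPM in WT and at 258 and 281 CPM in KE libraries, a log2 fold change of -2.57 (SE 0.30). The KO libraries, which differ widely in macrophage transcripts, were close to each other at 466 and 372 CPM. With the score as a covariate, the log2 fold change was -2.05. Plac8, a small cysteine-rich protein of leukocytes, lay at 388 and 431 CPM in WT, 69.8 and 83 CPM in KE and 62.7 and 113 CPM in KO libraries, and its log2 fold change was -2.42 (SE 0.35) in NK cells and -2.50 in CD8 T cells. Dgka, a diacylglycerol kinase that dampens antigen receptor signalling, lay at 263 and 192 CPM in WT and at 52.8 and 68.6 CPM in KE libraries. These 3 genes had groups that did not overlap and levels well above the floor in every library. Others among the 10 lower genes with the smallest p-values that differed at least 2-fold and reached 5 CPM in both WT libraries were Ms4a6b, with 601 and 699.9 CPM in WT and 273 and 242 CPM in KE libraries, and Sat1, a polyamine acetyltransferase, with 722 and 763 CPM in WT and 188 and 224 CPM in KE libraries. Their KO values were 308 and 445 CPM and 302 and 219 CPM. Such genes were chosen for their gap from the WT libraries, so that KO values away from WT are partly set by that choice.

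Part of the same short list moved with the macrophage transcripts in the KO libraries. Ctss, the cathepsin of antigen-presenting cells, lay at 2832 and 3405 CPM in WT, 168 and 249 CPM in KE, and 880.0 and 242 CPM in the KO libraries. Ftl1, a ferritin subunit, lay at 1064 and 765 CPM in WT, 204 and 273 CPM in KE, and 611 and 285 CPM in the KO libraries. In both, KO replicate 1, which held the macrophage transcripts, was more than 2-fold above KO replicate 2. The log2 fold change of Ftl1 was -1.94 (SE 0.34), and -0.82 with the score as a covariate, where Ctss stood at -2.04 and Ms4a6c at -3.36. Ms4a6c, a membrane protein known from monocytes, lay at 168 and 227 CPM in WT, 16.6 and 8.54 CPM in KE and 42.6 and 20.7 CPM in KO libraries.

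**Figure D2:**
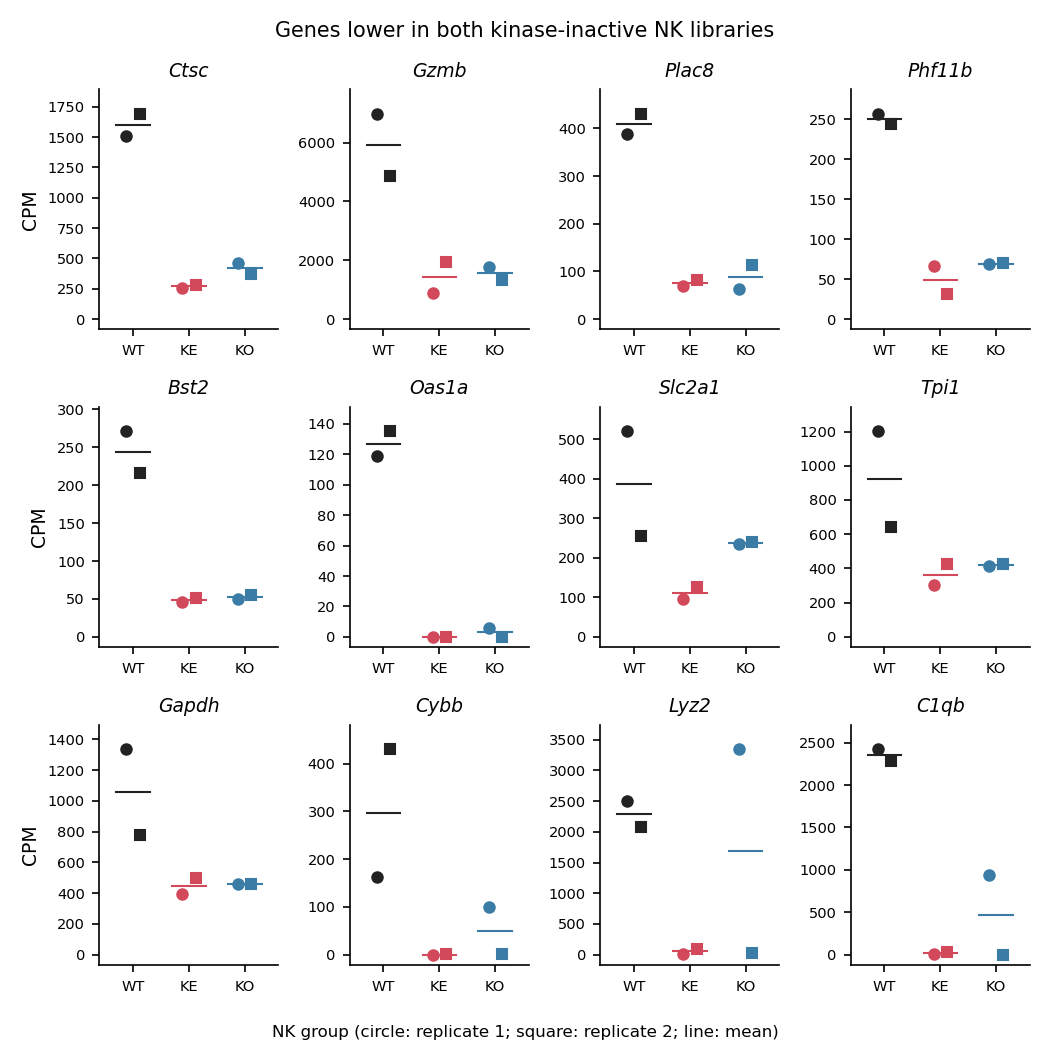
CPM of 12 genes that lay lower in both KE libraries, in the 2 WT, 2 KE and 2 KO NK libraries, each panel with its own linear axis, circles for replicate 1, squares for replicate 2 and a line for the group mean. The KO libraries sit close together for Ctsc, Phf11b, Bst2, Slc2a1 and Gapdh and far apart for Cybb, Lyz2 and C1qb.

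Interferon-stimulated genes lay lower in KE NK cells across several families. In a list of 36 direct targets that holds the IFIT, MX and PHF11 genes, 35 were lower, 18 of them at an unadjusted p under 0.05, none was higher, and the median log2 fold change was -1.97 (-2.01 with genes near 0 placed at their count ratio or bound), against 0.0 over all genes (-0.03 when so placed). Summed over the list, the WT libraries held 5334 and 4862 CPM, the KE libraries 1993 and 1725 CPM and the KO libraries 1684 and 1602 CPM, so that both KO libraries were alike. Bst2, the surface protein tetherin that holds budding virus back, lay at 271 and 216 CPM in WT, 45.5 and 51.7 CPM in KE and 50.5 and 55.3 CPM in KO libraries. Its log2 fold change was -2.32 (SE 0.47), with an edgeR FDR of 0.229. Phf11b, of an interferon-inducible cluster on chromosome 14, lay at 257 and 244 CPM in WT and at 66.2 and 31.3 CPM in KE libraries (log2 fold change -2.36, SE 0.38). Zbp1, a sensor of Z-form nucleic acid, lay at 198 and 183 CPM in WT and at 39.5 and 73.7 CPM in KE libraries. Each of these 3 genes had groups that did not overlap by a wide margin.

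The gap differed widely within the list. Usp18, the protease that removes ISG15 and limits interferon signalling, lay at 281 and 276 CPM in WT and at 24.6 and 17.5 CPM in KE libraries. Ifi27l2a, a small interferon-induced membrane protein, lay at 168 and 215 CPM in WT and at 0.644 and 7.8 CPM in KE libraries. Mx2, a member of the dynamin-like MX family that is annotated as a polymorphic pseudogene, lay at 30.7 and 61.7 CPM in WT and at 0.0919 and 0 CPM in KE libraries. That is 1174 counts against 1 and a ratio of 1141 (95% exact interval 204 to 45116, counting error only). Epsti1, the most abundant of the list, differed less, at 476 and 532 CPM in WT and 402 and 406 CPM in KE libraries, a log2 fold change of -0.32 (SE 0.23). Irf7, the factor that amplifies the interferon response and no member of this list, lay at 605 and 449.8 CPM in WT and 126 and 146 CPM in KE libraries. With the score as a covariate, the median of the 36 genes was -1.78 and 8 were lower at an unadjusted p under 0.05, against 2.17% of all genes lower at that level in the covariate fit. Of the 18 lower genes, 7 were within 2-fold between the KO libraries, 4 were at least 2-fold higher in KO replicate 1 and 7 in KO replicate 2, where 24.8% and 18.7% of all genes were so.

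The OAS family, sensors of double-stranded RNA, lay lower in all 8 tested members, 4 of them at an unadjusted p under 0.05, with a median of -3.01. The count was 1 and the median -2.67 with the score as a covariate, and without 1 of the 4 libraries the count was 1 or 2 (median -7.31 without KE replicate 2). Oas1a lay at 119 and 135 CPM in the WT libraries and had no count in either KE library, and was at least 1033-fold lower. Oasl2, the most abundant member, lay at 171 and 128 CPM in WT and at 23.5 and 48 CPM in KE libraries. OAS genes lie in a cluster of similar sequences, and reads that align to several places were not counted, so that their single values are less certain. Guanylate-binding proteins and immunity-related GTPases (IRG), which attack vacuoles of intracellular microbes and answer mainly to interferon γ, were less uniform: 14 of 18 were lower, 4 at an unadjusted p under 0.05, with a median of -0.68. In the covariate fit the median was -0.07 and 1 was lower at that level, and without WT replicate 1 the count was 2. Irgm1 lay at 215 and 483 CPM in WT and at 131 and 111 CPM in KE libraries, and Gbp9 at 210.4 and 153 CPM in WT and 68.7 and 57.7 CPM in KE libraries. Ifi47, the most abundant of them, differed little at 837 and 931 CPM in WT and 791 and 679 CPM in KE libraries, a log2 fold change of -0.27 (SE 0.20).

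Among the p200 and Schlafen families, which hold nucleic acid sensors and regulators of lymphocyte growth, 7 of 18 lay lower and 2 higher with an unadjusted p under 0.05. In the covariate fit 4 lay lower and 2 higher at that level, and 4 lay lower without WT replicate 1 or KE replicate 1 and 2 without KE replicate 2. Slfn2, a guard of lymphocyte quiescence, lay at 631 and 660.2 CPM in WT and at 336 and 337 CPM in KE libraries. Slfn1 lay at 28.6 and 25.5 CPM in WT and at 0.276 and 0.297 CPM in KE libraries. Ifi209 was lower, at 531 and 352 CPM in WT and 234 and 174 CPM in KE libraries, while its relative Ifi208 was higher, at 23.5 and 11.6 CPM in WT and 124 and 49 CPM in KE libraries. Both genes belong to one cluster on chromosome 1, and the KO values were 156 and 97.1 CPM for Ifi209 and 55.9 and 122 CPM for Ifi208. With the score as a covariate, Ifi208 had a log2 fold change of 0.08.

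The promoters of these families were searched on both strands for GAAA, any 2 bases, GAAA, the core of the interferon-stimulated response element, in windows of 300 bases from 250 before to 50 after the RefSeq gene start (GRCm38.p6). The pattern stood in 1131 of 32851 windows (3.44%). It stood in 11 of 27 direct targets with a window, in 4 of 6 OAS genes, in 9 of 10 GBP and IRG genes, in 11 of 17 p200 and Schlafen genes, in 32 of 388 genes that lay lower at an unadjusted p under 0.05 (8.25%), in 11 of 201 that lay higher (5.47%) and in 368 of 9303 tested genes with a window (3.96%). In the hypoxia and glycolysis list described below it stood in 1 of 39 windows. The windows of 5 genes are shown to let the spacing be read, on the strand of the gene and with the matched letters in capitals. They are Oas1a (chr5:120907476-120907775, minus strand), Bst2 (chr8:71537423-71537722, minus strand), Irgm1 (chr11:48871371-48871670, minus strand), Phf11b (chr14:59341281-59341580, minus strand) and Ifi208 (chr1:173673415-173673714, plus strand), the last for its higher level in KE. In Oas1a, Bst2 and Irgm1, 2 matches overlap in one run of capitals, which begins 20, 130 and 30 bases before the gene start. In Phf11b and Ifi208 the single match begins 50 and 58 bases before it. A match describes the letters and does not show binding.
Oas1a: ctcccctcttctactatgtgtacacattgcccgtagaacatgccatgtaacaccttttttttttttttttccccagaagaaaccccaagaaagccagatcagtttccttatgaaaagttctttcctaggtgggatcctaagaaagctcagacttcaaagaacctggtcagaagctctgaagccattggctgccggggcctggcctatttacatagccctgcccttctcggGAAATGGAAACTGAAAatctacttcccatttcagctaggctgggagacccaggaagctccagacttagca
Bst2: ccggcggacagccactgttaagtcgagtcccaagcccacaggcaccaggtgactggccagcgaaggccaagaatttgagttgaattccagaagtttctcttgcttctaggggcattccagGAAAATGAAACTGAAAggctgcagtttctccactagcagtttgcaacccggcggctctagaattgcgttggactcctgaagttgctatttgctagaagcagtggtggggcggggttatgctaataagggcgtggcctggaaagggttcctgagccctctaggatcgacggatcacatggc
Irgm1: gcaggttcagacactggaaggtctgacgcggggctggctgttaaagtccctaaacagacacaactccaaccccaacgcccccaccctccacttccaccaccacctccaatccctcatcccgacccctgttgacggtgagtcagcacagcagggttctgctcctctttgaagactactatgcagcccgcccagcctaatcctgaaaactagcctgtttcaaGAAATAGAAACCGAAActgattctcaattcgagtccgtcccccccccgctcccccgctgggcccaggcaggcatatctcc
Phf11b: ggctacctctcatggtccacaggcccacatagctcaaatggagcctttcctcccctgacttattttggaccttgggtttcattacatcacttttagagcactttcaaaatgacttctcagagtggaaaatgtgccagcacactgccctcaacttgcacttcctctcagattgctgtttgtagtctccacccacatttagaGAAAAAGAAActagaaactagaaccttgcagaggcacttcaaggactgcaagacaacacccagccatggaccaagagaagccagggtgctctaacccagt
Ifi208: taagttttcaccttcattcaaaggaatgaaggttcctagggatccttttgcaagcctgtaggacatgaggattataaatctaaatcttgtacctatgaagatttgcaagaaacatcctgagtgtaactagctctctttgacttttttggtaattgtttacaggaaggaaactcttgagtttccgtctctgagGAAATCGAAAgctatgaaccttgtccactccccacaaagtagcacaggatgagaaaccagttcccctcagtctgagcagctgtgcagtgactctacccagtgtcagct

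Class I and class II antigen presentation genes differed in size and in their relation to the macrophage transcripts. Of 21 class I and processing genes, 6 lay lower at an unadjusted p under 0.05 and none higher, with a median of -0.28. The median was -0.098 without WT replicate 1 and -0.092 without KE replicate 1. None lay lower at that level with the score as a covariate (median -0.15), and 1 did so without WT replicate 1 or without KE replicate 1. B2m, the light chain of all class I molecules, lay at 11007 and 9713 CPM in WT and at 7943 and 7815 CPM in KE libraries, a log2 fold change of -0.39 (SE 0.13). H2-T23, which encodes the ligand of the CD94/NKG2 receptors, lay at 1025 and 913 CPM in WT and 541 and 665 CPM in KE libraries. Each of the 6 lower class I genes was within 2-fold between the KO libraries, as were 304 of all 524 lower genes. Of 8 class II genes, 4 lay lower at an unadjusted p under 0.05 and the median was -3.72. H2-Aa, a chain of the peptide-presenting class II molecule, lay at 589 and 1173 CPM in WT, 10.2 and 102 CPM in KE, and 1378 and 57.4 CPM in the KO libraries. Cd74, the invariant chain that escorts class II molecules, lay at 1225 and 3195 CPM in WT, 16.2 and 149 CPM in KE, and 2039.9 and 103 CPM in the KO libraries. Class II levels were thus high in the WT libraries and in KO replicate 1, the 3 NK libraries with most macrophage transcripts, and with the score as a covariate the median of the list was 0.56 and none lay lower at an unadjusted p under 0.05. Without WT replicate 2 or KE replicate 1 the count was 1.

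Cytotoxic effector genes lay on both sides. Of 21 tested, 4 lay lower and 3 higher with an unadjusted p under 0.05, and the median was 0.0. By the covariate fit 2 lay lower and none higher, and without 1 of the 4 libraries 2 to 5 lay lower and 1 higher. Gzmb, the apoptosis-inducing granzyme B, lay at 6982 and 4856 CPM in WT, 889 and 1947 CPM in KE and 1782 and 1338 CPM in the KO libraries (log2 fold change -2.06, SE 0.59, edgeR FDR 0.534). Gzmk lay at 61.4 and 35.5 CPM in WT and at 25.1 and 9.88 CPM in KE libraries. Gzma, the most abundant granzyme, lay at 9102 and 9585 CPM in WT and 6538 and 5696 CPM in KE libraries, with a log2 fold change of -0.61 and an SE of 1.79. Ctsw, a cathepsin of cytotoxic granules, was higher, at 1948 and 1881 CPM in WT and 2864 and 3056 CPM in KE libraries. Among 15 cytokine and chemokine genes, 2 lay lower and 1 higher with an unadjusted p under 0.05, with a median of 0.51 (1.45 with the score as a covariate), and 5 lay lower without KE replicate 2. Csf1, the macrophage growth factor, lay at 4.01 and 0.383 CPM in WT and had no count in the KE libraries. Ccl5, a chemoattractant for T cells and dendritic cells, lay at 2341 and 1788 CPM in WT and 820.2 and 1274 CPM in KE libraries. Ltb, a membrane-bound tumour necrosis factor relative, was higher, at 144 and 214 CPM in WT and 235 and 496 CPM in KE libraries.

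NK receptor genes lay on both sides as well. Of 33 activating and inhibitory receptor genes, 5 lay lower and 3 higher with an unadjusted p under 0.05, while by position alone 12 were lower and 21 higher, with a median of 0.33. Given the score as a covariate, 2 lay lower and 6 higher at that level, and without 1 of the 4 libraries 1 to 3 lay lower and 2 to 5 higher. Ncr1, the activating receptor NKp46 that marks NK cells and related innate lymphocytes, lay at 840.3 and 928 CPM in WT, 1898 and 2279 CPM in KE and 2031 and 1226 CPM in KO libraries (log2 fold change 1.24, SE 0.24, edgeR FDR 0.186). Cd160, a receptor for HVEM and class I molecules, lay at 63.6 and 47.6 CPM in WT and 169 and 268 CPM in KE libraries. With the score as a covariate, Ncr1 had a log2 fold change of 2.09 and Cd160 of 3.05. The lower members included checkpoint genes. Lag3 lay at 87.5 and 34.6 CPM in WT and 17.7 and 18.7 CPM in KE libraries, and Havcr2, which encodes TIM-3, at 26.3 and 55.8 CPM in WT and 8.27 and 0.594 CPM in KE libraries. Havcr2 is also made by myeloid cells, and its KO values were 3.1 and 0.516 CPM. None of the 11 Ly49 receptor genes had an unadjusted p under 0.05, with a median of -0.05. Il2rb, the receptor chain for interleukins 2 and 15 on which NK cells depend, lay at 3207 and 3517 CPM in WT and 3697 and 3701 CPM in KE libraries.

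Among 32 maturation genes and transcription factors, 5 lay lower and 2 higher with an unadjusted p under 0.05, with a median of 0.07. In the covariate fit 1 lay lower and 1 higher, and without KE replicate 1 the counts were the same as with the covariate. Ets1, a factor needed for NK cell development, lay at 718 and 458 CPM in WT and 282 and 198 CPM in KE libraries. Prdm1, which encodes the terminal maturation factor Blimp-1, lay at 88.7 and 98.7 CPM in WT and 17.4 and 49.7 CPM in KE libraries. Zeb2, a factor of late NK cell maturation that macrophages also express, lay at 91.7 and 91 CPM in WT and 26.1 and 26.4 CPM in KE libraries, with 37.5 and 18.3 CPM in the KO libraries. Cxcr3, a receptor for interferon-induced chemokines, was higher, at 219 and 222 CPM in WT and 312 and 376 CPM in KE libraries. In a list of 17 genes of tissue-resident NK cells and type 1 innate lymphoid cells, 5 lay higher and 1 lower at an unadjusted p under 0.05, against a background of 2.07% higher. By the covariate fit 1 lay higher and 2 lower at that level, and without 1 of the 4 libraries 1 (without KE replicate 2) to 4 lay higher. Itga1, the integrin CD49a of tissue-resident cells, lay at 46.5 and 19.9 CPM in WT, 95.3 and 129 CPM in KE and 122 and 104 CPM in KO libraries. Il7r, the interleukin 7 receptor of innate lymphoid cells, lay at 21 and 13.6 CPM in WT and at 193 and 52.3 CPM in KE libraries, and its log2 fold change was 2.82 (SE 0.81) and with the score as a covariate 0.77. Itgae, which encodes the integrin CD103, had no count in either WT library and 2.76 and 10.7 CPM in the KE libraries, and was at least 59.7-fold higher.

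The other genes with the smallest p-values on the higher side were of mixed function and often absent from the WT libraries. Runx2, a RUNX family transcription factor, lay at 18.6 and 22.7 CPM in WT, 59.9 and 69.8 CPM in KE and 70 and 77.5 CPM in KO libraries. Ak3, a mitochondrial adenylate kinase, lay at 47.1 and 32.9 CPM in WT and 187 and 189 CPM in KE libraries. Ccr8, a chemokine receptor, lay at 0.25 and 1.07 CPM in WT, 10.8 and 14.1 CPM in KE and 0.62 and 0.442 CPM in KO libraries. Trib2, a pseudokinase, had no count in either WT library, 26.9 and 19.7 CPM in the KE libraries, and 0 and 0.0736 CPM in the KO libraries, and was at least 191-fold higher in KE than in WT. Ccr8 and Trib2 were thus detected mainly in the KE libraries of the 3 NK groups. Another 4 genes had at most 3 counts in the WT libraries together. Nme7 lay at 19.5 and 43.1 CPM in KE and 31.8 and 40.7 CPM in KO libraries, and Elac2 at 21.1 and 17.8 CPM in KE and 39.7 and 16.9 CPM in KO libraries. Klk8, a kallikrein-related protease, lay at 39.4 and 26.1 CPM in KE and 11.9 and 0.295 CPM in KO libraries, and the unnamed transcript Gm26825 at 39.4 and 63.9 CPM in KE and 0.0775 and 0.147 CPM in KO libraries. Each of these 4 overlaps another gene on the opposite strand, from which its reads cannot be told apart if strand was not used. Other named genes share this limit, among them Ak3, Runx2, Cd160, Dgka, Kif20a, Gapdh and Tpi1. Gbp9 overlaps Gbp4 and Gbp8 on its own strand. Of 17 T cell genes tested, 10 were higher and 7 lower in KE, 3 lay higher and none lower at an unadjusted p under 0.05, the median was 0.43 (-0.24 with the score as a covariate and -0.08 without KE replicate 1), and the summed level was 1087 and 1169 CPM in WT and 1408 and 1431 CPM in KE libraries. Among the 3 was Cd3e, given above, with the smallest p-value of the list and a log2 fold change of 1.94 (-0.33 with the covariate). Another, Cd3d, lay at 12.1 and 36 CPM in WT and 77.3 and 112 CPM in KE libraries, with a log2 fold change of 1.97 (-0.24 with the covariate). Whether T cells in the gate bear on the higher genes was not tested.

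**Figure D3:**
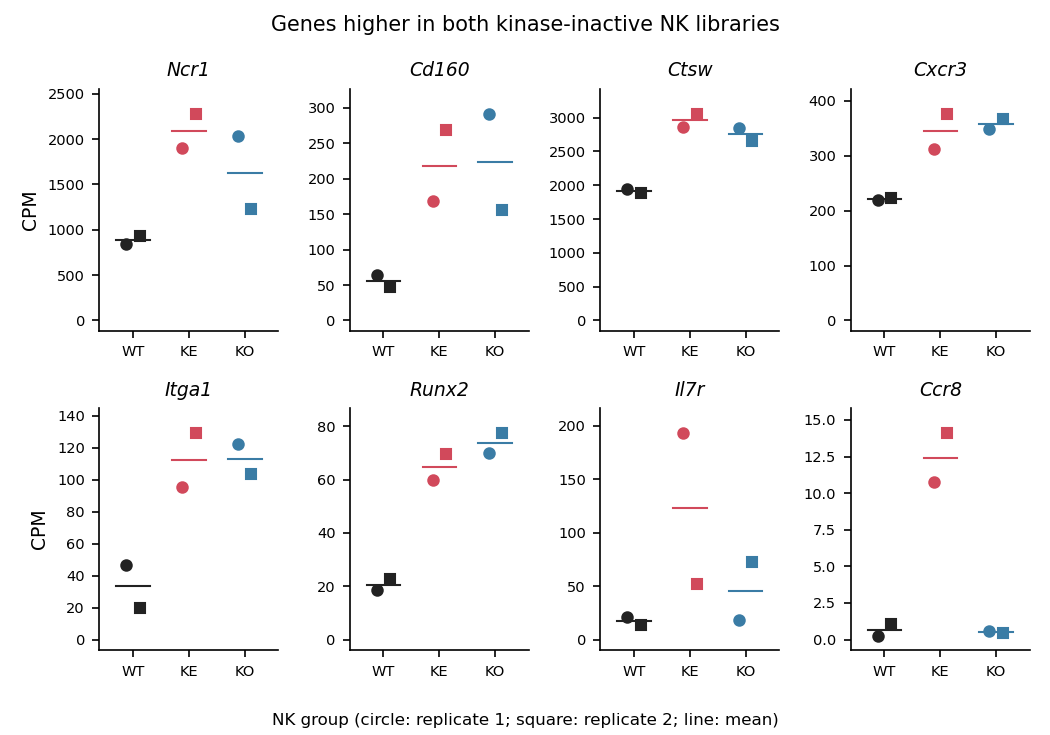
CPM of 8 genes that lay higher in both KE libraries, in the 2 WT, 2 KE and 2 KO NK libraries, each panel with its own linear axis from 0, circles for replicate 1, squares for replicate 2 and a line for the group mean. The 8 genes were chosen for their gap between KE and WT, and the KO libraries sit near WT for Ccr8 and above both WT libraries for Itga1 and Runx2.

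Glycolysis and hypoxia genes formed another group that lay lower. Of 43 tested, 39 lay lower, 21 at an unadjusted p under 0.05 and none higher at that level, and the median was -1.27. The summed level was 20061 and 12024 CPM in WT, 7071 and 8314 CPM in KE and 8058 and 9243 CPM in KO libraries. Slc2a1, the glucose transporter GLUT1, lay at 520.4 and 256 CPM in WT, 95.3 and 126 CPM in KE and 236 and 241 CPM in KO libraries (log2 fold change -1.81, SE 0.38). Tpi1, triose phosphate isomerase, lay at 1201 and 640.3 CPM in WT and 303 and 423 CPM in KE libraries. Gapdh, the next enzyme of glycolysis, lay at 1336 and 778 CPM in WT, 391 and 496 CPM in KE and 462 and 458 CPM in KO libraries (log2 fold change -1.25, SE 0.25, edgeR FDR 0.187). Slc16a3, the lactate exporter MCT4, lay at 90.8 and 26.3 CPM in WT and 0 and 0.594 CPM in KE libraries. At each of these 4 genes WT replicate 1 was the higher of the WT libraries, and the groups did not overlap. Ldha, which turns pyruvate into lactate, showed a smaller gap, at 2863 and 1769 CPM in WT and 1073 and 1357 CPM in KE libraries. Of all 524 genes lower at an unadjusted p under 0.05, 304 were within 2-fold between the KO libraries and 157 at least 2-fold higher in KO replicate 1. With the score as a covariate, 472 of the 524 stayed lower, 106 of them at that level. Of the 21 lower genes here, 19 were within 2-fold between the KO libraries and none was 2-fold higher in the macrophage-rich KO replicate 1. All 21 stayed lower with the score as a covariate, 9 of them at an unadjusted p under 0.05. Over the whole list, 12 genes were lower at that level in the covariate fit, and 12 without WT replicate 1 or without KE replicate 1.

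Genes of mitosis lay lower in KE as well, but at low levels. Of 44 cell cycle genes, 16 lay lower at an unadjusted p under 0.05 and the median was -1.39 (-1.52 with genes near 0 at their count ratio or bound). The median was -0.516 without WT replicate 1, -2.676 without KE replicate 2 and -0.285 with the score as a covariate. Birc5, which encodes survivin of the chromosomal passenger complex, lay at 20.7 and 3.6 CPM in WT and 0.0919 and 0.0743 CPM in KE libraries, with KO values of 0.465 and 0.295 CPM. Kif20a, a kinesin of cytokinesis among the 10 lower genes with the smallest p-values, lay at 5.34 and 7.2 CPM in WT and 0.0919 and 0.0743 CPM in KE libraries. Ube2c, an anaphase ubiquitin-conjugating enzyme, lay at 13.3 and 7.2 CPM in WT and 0.0919 and 0.223 CPM in KE libraries, with 8.53 and 0.295 CPM in the KO libraries. In 10 of the 16 genes both KE libraries were under 1 CPM. Tubb5, the most abundant member, did not separate the groups, at 649 and 532 CPM in WT and 514 and 613 CPM in KE libraries. The count of 16 was sensitive to the fit: 1 gene had an unadjusted p under 0.05 with the 6 NK libraries alone, 4 with the 4 libraries compared, 4 with the score as a covariate (where 6 lay higher), 4 without WT replicate 1 (where 3 lay higher) and 7 without KE replicate 1. Growth and respiration genes differed less: at an unadjusted p under 0.05, 1 of 36 MYC and ribosome biogenesis genes lay lower and 3 higher, with a median of 0.29, and 1 of 36 oxidative phosphorylation genes lay higher and none lower, with a median of 0.07. The higher count of the MYC list was 1 without WT replicate 1, KE replicate 1 or KE replicate 2, its median ran from 0.08 (without KE replicate 2) to 0.73 (without WT replicate 2), and the higher count of the oxidative phosphorylation list was 0 without any 1 of the 4 libraries. Utp4, a ribosome assembly factor, lay at 38.8 and 23.1 CPM in WT and 115 and 119.6 CPM in KE libraries. Of 31 activation and dissociation response genes, 5 lay lower and none higher at an unadjusted p under 0.05, with a median of -0.35. That median ran from -0.151 without WT replicate 2 to -0.731 without KE replicate 2. With the score as a covariate 1 lay lower and 1 higher.

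**Figure D4:**
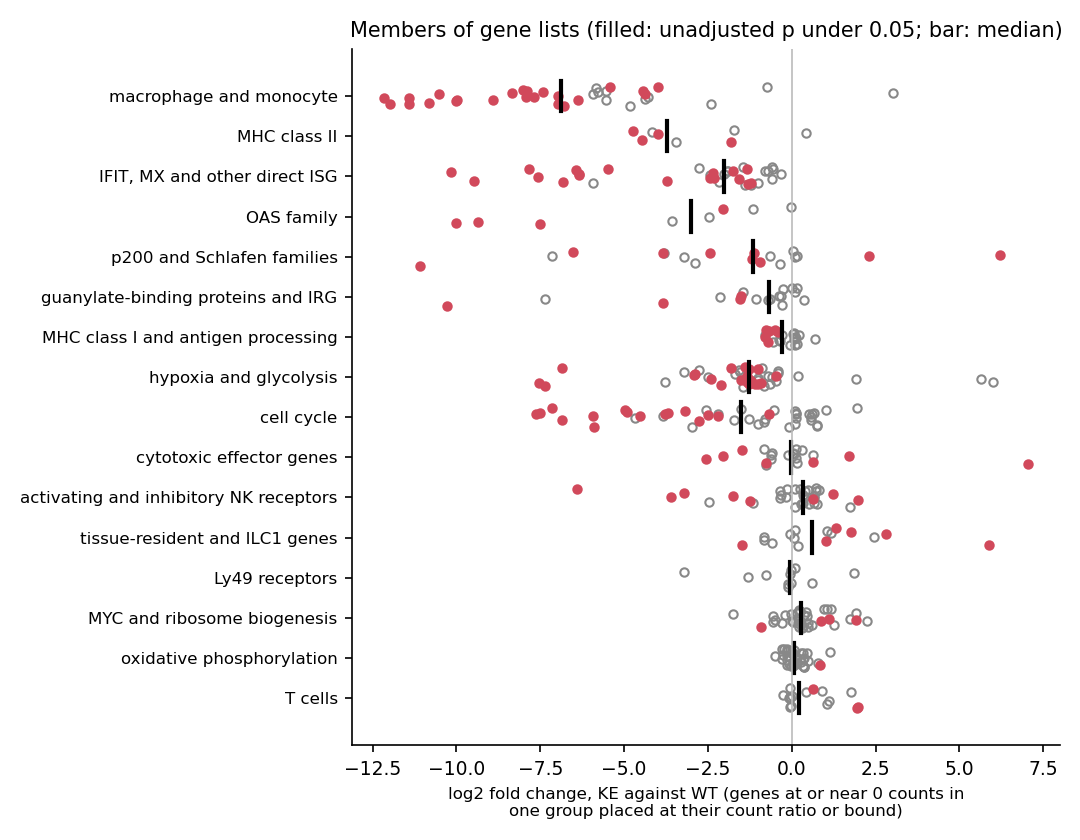
Log2 fold change of KE against WT for the tested members of 16 gene lists, one point a gene, filled where the unadjusted p was under 0.05, with a black bar at the list median, and with genes at 3 counts or fewer in one group placed at their count ratio or bound. The macrophage and monocyte list has its median at -6.88, the hypoxia and glycolysis list at -1.27, and the MYC and oxidative phosphorylation lists lie close to 0.

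The differences that followed myeloid transcripts can be listed gene by gene. Of the 34 macrophage and monocyte genes, 33 lay lower in KE, 23 at an unadjusted p under 0.05, and the median was -6.88. Cybb, the catalytic chain of the phagocyte oxidase, lay at 163 and 430.1 CPM in WT, 0.0919 and 0.446 CPM in KE, and 99.2 and 0.442 CPM in KO libraries. Apoe, the most abundant of the list, lay at 7099 and 5409 CPM in WT, 2.11 and 149 CPM in KE, and 1811 and 1.99 CPM in KO libraries. Both genes thus had high WT libraries and one high KO library. Of the 23 lower genes, 19 were at least 2-fold higher in KO replicate 1 than in KO replicate 2. Of the other 4, 2 were higher in KO replicate 2 and 2 were within 2-fold. The latter were Ccl12, a monocyte-attracting chemokine, at 59.9 and 266 CPM in WT and 0.0775 and 0.147 CPM in the KO libraries, and Csf1r, the receptor that macrophages need to survive, at 291 and 300.1 CPM in WT and 0.155 and 0.221 CPM in the KO libraries. With the score as a covariate, 2 genes of the list were lower and 4 higher with an unadjusted p under 0.05. The score is the mean of these same genes, so that their values in this fit are largely set by it and are no separate reading. Without KE replicate 1 the count of 23 was 7, and without WT replicate 1 it was 14.

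A gene was said to follow the score if its Pearson's r with it reached 0.8 over the 8 libraries outside the comparison, which is a description over libraries that share preparation and differ in cell type. By this rule 103 genes followed the score (0.785% of all tested), among them 20 of the 524 lower genes (3.82%) and 1 of the 272 higher genes. The rule is strict, because it caught only 9 of the 34 macrophage and monocyte genes themselves. Over all 12 libraries, which include the comparison, 113 of the 524 lower genes followed (21.6%) and none of the higher genes. By another reading, 157 of the 524 lower genes were at least 2-fold higher in KO replicate 1 than in KO replicate 2 (30.0%), against 24.8% of all genes and 43 of the 272 higher genes (15.8%), while 304 of the 524 were within 2-fold between them and 63 were at least 2-fold higher in KO replicate 2 (against 18.7% of all genes). Genes with next to no counts in either KO library, such as Ccl12 and Csf1r, also fall within 2-fold. Their number among the 304 was not determined, and for them this reading is empty. With the score as a covariate, 472 of the 524 genes kept the lower direction and 106 an unadjusted p under 0.05. Among the named lower genes, the KO libraries were within 2-fold for Ctsc, Bst2, Gapdh and B2m, split with the macrophage transcripts for Ctss, H2-Aa, Cd74, Lyz2 and C1qb, and split the other way for Mx2, at 0.0775 and 32.3 CPM, and Gbp9, at 24.6 and 77.8 CPM. Fold changes of KO against WT are not set beside those of KE, because both would rest on the same WT libraries.

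**Figure D5:**
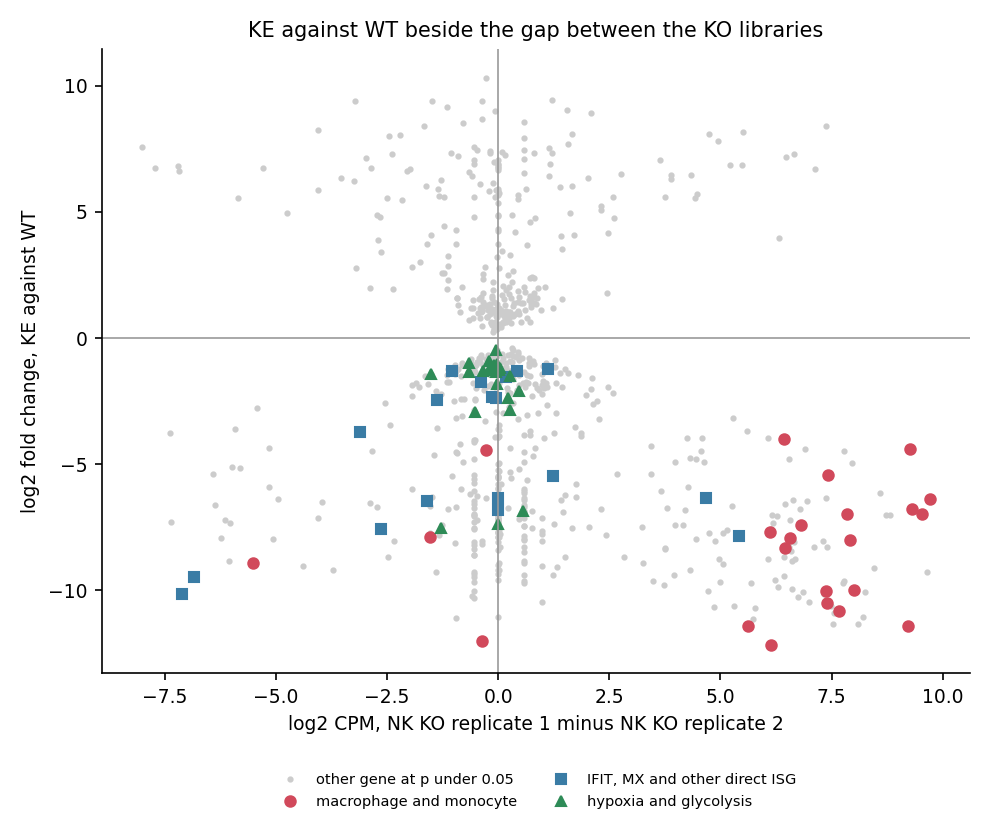
Log2 fold change of KE against WT for genes at an unadjusted p under 0.05 (vertical axis) against the log2 CPM of NK KO replicate 1 minus that of NK KO replicate 2 (horizontal axis), with macrophage and monocyte, interferon-stimulated and hypoxia and glycolysis genes marked. Of 23 macrophage and monocyte genes 19 lie at 1 or more on the horizontal axis, whereas 19 of 21 hypoxia and glycolysis genes lie within 1 of 0.

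The same mutation in CD8 T cells of the same kind of tumour gave a comparison with no library in common, though both share the estimate of spread. In CD8 T cells 399 genes lay lower in KE at an unadjusted p under 0.05 (3.04%), and 74 genes were lower in both cell types, which is 14.1% of the NK genes and 18.5% of the CD8 genes. Among the direct interferon targets 12 of the 18 lower NK genes were also lower in CD8 T cells at that level, among the hypoxia and glycolysis genes 10 of 21, among the cell cycle genes none of 16, and among the macrophage and monocyte genes 1 of 23. The medians in CD8 T cells were -2.77 for the direct targets, -0.87 for hypoxia and glycolysis, -0.44 for the cell cycle and 0.98 for macrophages and monocytes. The summed macrophage transcripts of the CD8 libraries were 245 to 393 CPM in WT and 507 to 896 CPM in KE, that is, without the excess in WT seen in NK cells. Bst2 had a log2 fold change of -2.35 in CD8 T cells, Phf11b of -2.44, Slc2a1 of -1.73 and Gzmb of -1.87, each close to its NK value. Other named lower genes lay further apart. Oasl2 stood at -9.48 in CD8 T cells and -2.06 in NK cells, and Ctss at -0.49 and -3.90. Ftl1 stood at 0.20 in CD8 T cells and -1.94 in NK cells, and Dgka at -0.54 and -1.91. For Bst2 the difference between the cell types was 0.03 (SE 0.64) and for Slc2a1 -0.08 (SE 0.52), and with these SEs a difference of 1 on the log2 scale cannot be told apart from none.

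No gene had a difference in effect between NK and CD8 T cells at an FDR under 0.05 with edgeR (0 of 13129, 0.0%), with 821 at an unadjusted p under 0.05 and 269 by DESeq2 (2.05%). The smallest FDR was 0.0604, shared by Trdc, Klrb1f and the unnamed transcript Gm20743. The gap lay in CD8 T cells for Trdc. Trdc, the constant part of the T cell receptor δ chain, had a log2 fold change of -0.08 in NK cells and -5.59 in CD8 T cells. Ctsc showed the opposite arrangement, with -2.57 in NK cells and -0.06 in CD8 T cells, a difference of -2.51 (SE 0.40, edgeR FDR 0.181). Ncr1 differed by 1.66 (SE 0.38) and Cxcr3 by 1.41 (SE 0.29), the latter being lower in KE CD8 T cells (-0.77) and higher in KE NK cells (0.64). None of these 3 passed the threshold.

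KE and KO NK cells were compared directly, without the WT libraries. No gene passed an FDR under 0.05 with edgeR (0 of 13129, 0.0%), where the smallest FDR was 0.564, with 505 genes at an unadjusted p under 0.05 and 208 called by DESeq2 (1.58%). Commd9, a COMMD family protein, was the gene with the smallest p-value, at 46.2 and 30.3 CPM in KE and 0 and 0.0736 CPM in KO libraries. Camk4, a calcium-dependent kinase, lay at 15.3 and 8.32 CPM in KE and 0.388 and 1.1 CPM in KO libraries. Mthfd2, an enzyme of mitochondrial folate metabolism, lay at 17.1 and 4.98 CPM in KE and 0.233 and 0 CPM in KO libraries. All 3 were thus near the floor in KO and at modest levels in KE. The abundant genes named above differed among themselves. The log2 fold change of KE against KO was -0.64 (SE 0.28) for Ctsc, -0.14 (SE 0.57) for Gzmb, -0.12 (SE 0.45) for Bst2, -0.05 (SE 0.24) for Gapdh and 0.36 (SE 0.24) for Ncr1. It was -1.43 (SE 0.54) for Ctss, -1.11 (SE 0.37) for Slc2a1, -0.95 (SE 0.28) for Dgka, -0.94 (SE 0.36) for Zbp1, -0.91 (SE 0.33) for Ftl1 and -0.74 (SE 0.26) for Ccl5, and none of these had an FDR under 0.05.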

How the data were processed

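RNA of 12 libraries of 300 sorted cells was measured by Smart-seq2, which primes on poly(A) and amplifies by PCR. Per the submitters' notes and methods, the authors used Trimmomatic for trimming and STAR for alignment of single-end reads to mm10 (GRCm38), and they counted uniquely aligned reads in the exons of GENCODE genes with summarizeOverlaps, and these raw counts per gene were deposited without normalization. Reads that align to several places are absent, no molecular identifiers were stated, and whether the counting used strand is not given in the sources used here, so that genes that overlap or have near copies are uncertain and intervals cover counting error only. Groups and replicate numbers came from the sample titles.

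The main test was the robust, two-sided quasi-likelihood F-test of edgeR 4.0.16 (R 4.3.3) with TMM factors and one mean per group over all 12 libraries. Genes had to average 10 normalized counts, and p-values were adjusted by Benjamini-Hochberg over all 13129 (FDR). SE is the absolute log2 fold change over the square root of F. CPM are scaled by the TMM factors. Folds against groups with 0 counts were computed against a floor of 3 counts over the group. DESeq2 1.42.0, RLE size factors, no filter, a filter of 50, 6 and 4 libraries, a replicate block, the macrophage and monocyte score as a covariate and the omission of each of the 4 libraries compared were alternatives, and the omission of NK KO replicate 1 was added after seeing the data. The fit was also run on simulated counts with known changes, and the outcome is not reported here.

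The comparison, gene lists and tests were chosen with earlier results of these data known. The robust ISG, tunable ISG and JAK-STAT lists were compiled by the study from earlier publications, the others for this work. Named genes are Tyk2, the sort markers, the 10 lower and 10 higher genes with the smallest unadjusted p (p under 0.05, absolute log2 fold change of at least 1, groups apart, at least 5 CPM in both libraries of the higher group), the 4 members with the smallest p and the most abundant member of each list, and the 5 genes with the smallest p in the tests against CD8 T cells and KO. Lyz2, C1qb, Csf1r, Usp18, Ifi27l2a, Zeb2 and Itga1 were chosen after their values were seen. Of 160 genes that the rule names, 81 are given with values, the others enter only the counts of their lists, and some are not reported here.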

Additional observations from a re-analysis of the deposited data

How the results depend on the processing

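The number of genes called in KE against WT NK cells was 0 with edgeR on 12 libraries and depended on the fit. It was 1 with RLE size factors, 256 without a filter on low counts, 12 with the 4 libraries compared alone, 11 without NK KO replicate 1 in the shared spread (chosen after seeing the data), 388 with DESeq2 on 12 libraries and 570 with DESeq2 on the 4 libraries. The cause of these differences was not tested. At an unadjusted p under 0.05, the 524 lower genes became 800 without a filter, 285 (and 403 higher) with the macrophage and monocyte score as a covariate, and 826 and 1018 with DESeq2 on 12 and 4 libraries, and the 272 higher genes became 439 and 480 with DESeq2.

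Among the lists, the covariate left 8 lower direct interferon targets, 12 hypoxia and glycolysis genes, 4 cell cycle genes and 2 macrophage and monocyte genes. The macrophage and monocyte genes make up the score, so that their count and median in this fit are largely set by it. The cell cycle count was 1 with the 6 NK libraries, 4 with the 4 libraries and 9 with DESeq2 on the 4. Leaving out 1 of the 4 compared libraries at a time, with the lone library assumed to vary like the other groups, gave 0 to 1 calls, 299 (without KE replicate 1) to 572 lower genes at an unadjusted p under 0.05, with 316 without WT replicate 1, where 316 lay higher. The hypoxia and glycolysis count ran from 12 (without WT replicate 1 or KE replicate 1) to 21, the cell cycle count from 4 (without WT replicate 1) to 16, with 7 without KE replicate 1, the macrophage and monocyte count from 7 (without KE replicate 1) to 17, with 14 without WT replicate 1, and the direct interferon target count from 12 to 16. Medians that changed sign with the covariate were those of MHC class II (0.562), Ly6 proteins (0.666), macrophages and monocytes (2.338), T cells (-0.238) and dendritic cells (-0.191, from 0.042). Leaving out 1 library moved the median of the maturation list between -0.118 and 0.105, of T cells between -0.077 and 0.594, of tumour epithelial genes, of which 3 were tested, between -8.922 and 8.043, of B cells between -0.121 and 2.72 and of fibroblast and vessel genes between -4.162 and 0.17.

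Of 1319 pairs of a named gene and an alternative, 1300 kept the direction. With the covariate, Tyk2 stood at -0.46, Cd3e at -0.33, Cd3d at -0.24, Epsti1 at 0.03, H2-Aa at 0.76, Apoe at 3.36, Lyz2 at 2.02, C1qb at 3.48 and Commd9 at -2.26. Apoe, Lyz2 and C1qb are themselves part of the score. Leaving out 1 library put Ptprc between -0.01 and 0.36, Cd8a between -0.35 and 0.4, Tubb5 between -0.2 and 0.08, Trdc between -0.47 and 0.46, Commd9 between -0.29 and 0.32 and Mthfd2 between -0.09 and 2.23. Of the 524 lower genes, the number that followed the score was 64 at r of 0.7, 2 at r of 0.9 and 113 over 12 libraries, 10 over the 7 libraries without NK KO replicate 1, and 157 were 2-fold higher in KO replicate 1, the last pair of measures being chosen after seeing the data. DESeq2 called 269 genes in the test against CD8 T cells and 208 in KE against KO.

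Replicate numbers did not pair the samples: the correlation of deviations from the group means was 0.00755 between WT and KE NK cells. With the replicate number as a block, 0 genes were called and 470 lay lower and 247 higher with an unadjusted p under 0.05, and no call changed. The common biological coefficient of variation was 109% over groups of 2 libraries. The test also uses the spread of each gene, so that precision differed between genes, with an SE of 0.13 for B2m, 0.30 for Ctsc and 3.28 for Oas1a.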

Other observations

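Other gene lists lay as follows in KE against WT NK cells, as counts of members at an unadjusted p under 0.05 beside the background of 3.99% lower and 2.07% higher. Of 45 robust ISG, which answer to little interferon and of which 27 are also in other lists, 11 lay lower and 2 higher, with a median log2 fold change of -1.21 (-1.89 in CD8 T cells). The lower count was 3 with the macrophage and monocyte score as a covariate (median -0.78), 4 without WT replicate 1 and 7 without KE replicate 1. Of 11 tunable ISG, 2 lay lower and none higher, with a median of -4.61 (-2.28 with the covariate), none lay lower with the covariate, without KE replicate 1 or without KE replicate 2, and 5 of the 11 had at most 3 counts in one of the groups. Of 55 JAK-STAT components, 5 lay lower and none higher, with a median of -0.24, and 1 lay lower with the covariate or without KE replicate 1. Irf8, a transcription factor of NK cells, B cells and myeloid cells, lay at 1727 and 1288 CPM in WT, 607 and 971 CPM in KE and 624 and 857 CPM in KO libraries, and in CD8 T cells its log2 fold change had the other sign (1.05 against -0.93 in NK cells, edgeR FDR of the difference 0.519). Of 22 interleukin receptor genes, 3 lay lower and 1 higher, with a median of -0.28, and none lay lower with the covariate, without WT replicate 2 or without KE replicate 1. Il27ra, the receptor chain for interleukin 27, lay at 146 and 196 CPM in WT and 55.7 and 107 CPM in KE libraries. Of 6 genes in a list of Ly6 proteins that also holds Plac8, 2 lay lower, namely Plac8 and Ly6a, with a median of -0.47. Of 24 mTORC1 and amino acid response genes 1 lay lower, with a median of 0.74. The mTORC1 median was 0.03 without KE replicate 2 and 0.30 with the covariate, and none lay lower in either fit, while 3 lay higher with the covariate. The count of the Ly6 list was 1 with the covariate, namely Plac8 (log2 fold change -3.25), while Ly6a stood at 1.45. Its median was -1.40 without KE replicate 1. Markers of further cell types were sparse: 0 of 4 B cell genes, 0 of 5 fibroblast and vessel genes and 0 of 6 dendritic cell genes lay lower, and 1 dendritic cell gene and 1 of 3 tumour epithelial genes lay higher. Summed dendritic cell transcripts were 41.4 and 94.2 CPM in WT and 36.6 and 104 CPM in KE libraries. Summed neutrophil transcripts were 137 and 344 CPM in WT and 11.6 and 3.86 CPM in KE libraries, and the mean sum was 31.1 times higher in WT. All 7 neutrophil genes tested had at most 3 counts in a group. Of these 7 neutrophil genes, 1 lay lower and 1 higher. The lower gene was Il1b, an inflammatory cytokine that followed the macrophage and monocyte score (Pearson's r of 0.818 over the 8 other libraries), at 107 and 313 CPM in WT, 0 and 0.149 CPM in KE and 56.2 and 0.147 CPM in KO libraries. The higher gene was G0s2, an inhibitor of fat breakdown, at 0 CPM in both WT libraries, 11.5 and 3.71 CPM in KE and 5.04 and 13.1 CPM in KO libraries.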
